A study of Mus musculus with 6 samples.

Results

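The enzymes that make and break down prostaglandins were followed as 10 genes, taken by symbol from the 45703 genes of the count table. They were Pla2g4a, Ptgs1, Ptgs2, Ptges, Ptges2, Ptges3, Ptgds, Hpgds, Ptgis and Hpgd, and all 10 had a row. The samples formed a single group of 6 primary cultures of dorsal root ganglia. The ganglia came from C57BL/6 mice of wild-type genotype, 4 to 6 weeks of age. The dissociated cells were kept for 7 days in medium with 10% fetal calf serum, with EGF and FGF at 10 ng/ml, and RNA of 2 dishes was pooled per sample. No untreated, freshly isolated or differently treated group exists, so every value describes this culture condition, in which serum and growth factors were shared by all samples. The labels do not say whether each replicate came from separate animals, so tests over the 6 samples measure only the spread between these samples.

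Prostaglandins are short-range lipid signals made from arachidonic acid. A phospholipase frees the acid from membranes, a cyclooxygenase converts it to the unstable prostaglandin H2, and terminal synthases turn that into prostaglandin E2, D2 or prostacyclin. In sensory ganglia prostaglandin E2 and prostacyclin are known for sensitising pain-sensing neurons, and the dehydrogenase encoded by Hpgd inactivates prostaglandins inside cells.

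The 6 libraries held between 20070639 and 22968642 counts. The labelled tissue was checked with marker lists: all 8 peripheral glial lineage genes and all 7 neuronal genes had more than 3 counts in every library. The glial sum lay between 4468 and 6531 CPM (counts relative to the library total, in the usual CPM scaling) and the neuronal sum between 1044 and 2038 CPM. Fibroblast markers summed to 3339 CPM in replicate 1 and 13980 CPM in replicate 5, and macrophage markers to 17.2 CPM in replicate 1 and 180.3 CPM in replicate 5. Replicates 1 and 5 therefore stand at the ends of both lists. In such mixed RNA, fewer cells of a type and less RNA per cell cannot be told apart.

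Most prostaglandin enzyme genes differed many-fold between cultures of the same group. Ptgs2, Ptgis, Ptgs1, Hpgds, Ptges, Pla2g4a and Hpgd spanned from 13.0-fold (Hpgd) to 88.9-fold (Ptgis) between their lowest and highest library. Ptges2 and Ptges3, in contrast, spanned 1.22-fold and 1.14-fold. Of the 10 genes, 6 passed the low-count filter, which with a single group asks for the minimum in all 6 libraries. Tested by chi-square against counts proportional to the scaled library sizes, 5 of those 6 genes were variable beyond counting noise (adjusted p under 0.05), against 76.3% of the 14998 genes tested, so the number of calls is near the background. The size of the spread lay farther from that of all genes. The median SD of log2 CPM was 1.22 over the 9 enzyme genes with a mean of at least 1 CPM, and 0.17 over all 14953 genes with that mean. The enzymes were chosen with earlier results of these data known, so this gap is a description and not a test.

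The same 2 cultures formed the ends for many of these genes. Of the 10 genes, 5 had both their lowest CPM in replicate 1 and their highest CPM in replicate 5. Over genes with a mean of at least 1 CPM, both held for 14.1%, and over those passing the filter for 12.9%. This measure was chosen after the values were seen.

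**Figure D1:**
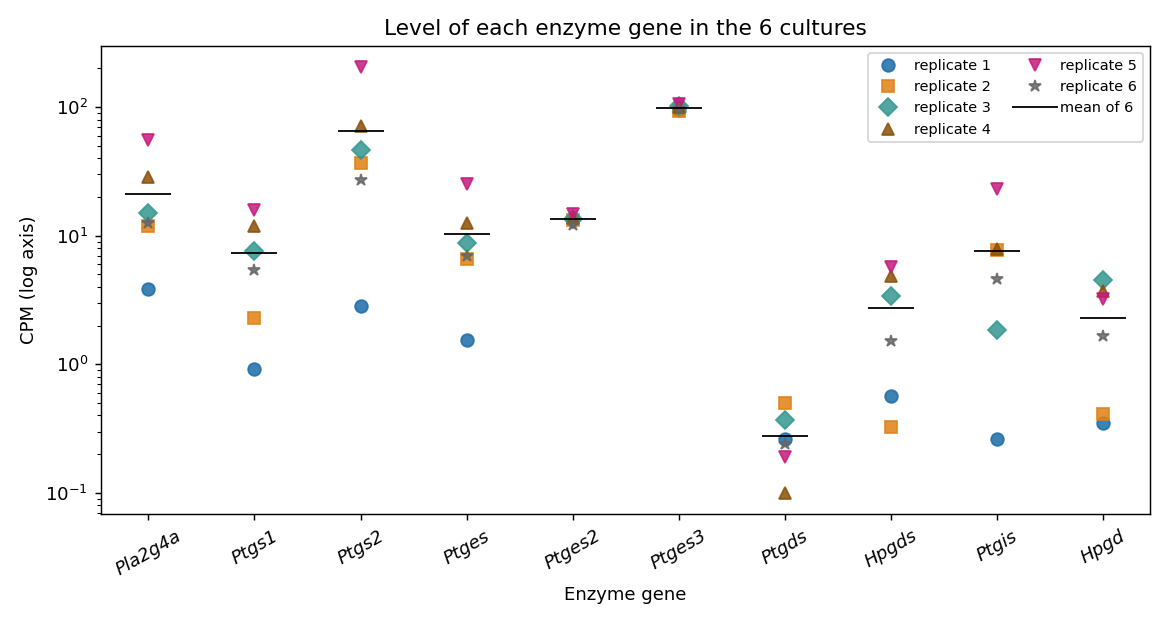
CPM (log axis) of the 10 enzyme genes in each of the 6 cultures, 1 symbol per replicate, with a bar at the mean. Ptges2 and Ptges3 cluster tightly, Ptgs2 spreads from 2.83 to 204.4 CPM, and Ptgds lies at or below 0.50 CPM in every library.

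Pla2g4a encodes the cytosolic phospholipase A2 that frees arachidonic acid from membranes (chromosome 1, 149829618 to 149961290, GRCm38.p6). Its levels in replicates 1 to 6 were 3.83, 11.8, 15.0, 28.6, 55.5 and 12.5 CPM, a mean of 21.2 ± 18.6 CPM (SD, n = 6). Replicates 2, 3 and 6 were close together, replicate 1 was lowest and replicates 4 and 5 were highest. Its SD of log2 CPM was 1.25, above that of 98.6% of genes with a mean of at least 1 CPM.

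Of the cyclooxygenases, Ptgs2, the inducible enzyme COX-2 (chromosome 1, 150100031 to 150108234), had the widest range among the genes that passed the filter. Its levels in replicates 1 to 6 were 2.83, 36.5, 46.3, 71.8, 204.4 and 27.1 CPM, from 65 counts in replicate 1 to 4278 in replicate 5. The mean of 64.8 ± 72.0 CPM (SD, n = 6) became 36.9 CPM without replicate 5, and the SD of log2 CPM of 1.97 became 1.13 without replicate 1. The 4 libraries between these ends still ranged from 27.1 to 71.8 CPM.

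Ptgs1, the constitutive enzyme COX-1 (chromosome 2, 36216742 to 36258593), was lower. It stood at 0.914, 2.28, 7.64, 11.9, 15.7 and 5.40 CPM in replicates 1 to 6, with a mean of 7.31 ± 5.69 CPM (SD, n = 6). Replicates 1 and 2 were low and replicates 4 and 5 high. The chi-square test called this spread across all genes tested (adjusted p = 6.09e-99).

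Per kilobase of exon and within each library, Ptgs2 exceeded Ptgs1 in 6 of 6 cultures. The log2 difference was 3.89 ± 1.07 (SD, n = 6), a ratio of 14.9, and ran from 2.08 in replicate 1 to 5.07 in replicate 5. The two-sided exact sign-flip permutation test gave p = 0.0312, the smallest that 6 libraries allow. Over the 9 enzyme pairs compared the adjusted p was 0.0703, so it failed the correction. With 6 libraries a pair can pass only if most of the 9 pairs reach that smallest p. The failure therefore does not measure the size of this difference. The deposited exon length of Ptgs1, 12411 bases, is longer than 2867 bases, the length of its GENCODE M21 transcript with the longest coding sequence. Where transcripts tied, the longest was taken. With transcript lengths of that kind for all genes, chosen with the results in view, the log2 difference was 2.09, still positive.

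For prostaglandin E2, the 3 synthase genes split into 1 variable and 2 steady ones. Ptges encodes the membrane-bound synthase usually coupled to COX-2 (chromosome 2, 30889471 to 30931020). It was measured at 1.55, 6.56, 8.70, 12.6, 25.2 and 6.96 CPM in replicates 1 to 6, a mean of 10.3 ± 8.13 CPM (SD, n = 6). Its library order, 1, 2, 6, 3, 4 and 5 from low to high, was that of Pla2g4a and Ptgs1. The gene overlaps Gm52550 on the opposite strand, and the strand setting of the counting is not given in the sources used here, so reads of the 2 genes might not be separated.

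Ptges2, a further membrane-associated prostaglandin E synthase (chromosome 2, 32395890 to 32402740), was measured at 13.5, 13.2, 13.4, 13.9, 14.8 and 12.1 CPM in replicates 1 to 6. The 6 libraries lay close around the mean of 13.5 ± 0.869 CPM (SD, n = 6). Its spread was not called beyond counting noise across all genes (chi-square adjusted p = 0.453).

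Ptges3, the cytosolic synthase also known as the HSP90 co-chaperone p23 (chromosome 10, 128058982 to 128077254), was the most abundant of the 10 genes in CPM. It stood at 95.8, 93.1, 102.7, 99.8, 105.7 and 96.6 CPM in replicates 1 to 6, a mean of 98.9 ± 4.69 CPM (SD, n = 6). Its counts were fractional in all 6 libraries, so reads may have been shared with similar sequences. The chi-square test called it at an adjusted p of 0.0419, but not without a low-count filter (adjusted p = 0.155), nor when replicate 1 or replicate 5 was left out. Its SD of log2 CPM was 0.07, below that of all but 7.75% of genes with a mean of at least 1 CPM.

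The upstream bases of the variable Ptgs2 and Ptges and of the steady Ptges2 and Ptges3 are shown to set the sequences beside these contrasting spreads. Each run is the 250 bases before a gene start listed by RefSeq (GRCm38.p6), 5′ to 3′ on the gene's strand, with motif matches in capitals.
Ptgs2 (chr1:150099781-150100030, plus strand): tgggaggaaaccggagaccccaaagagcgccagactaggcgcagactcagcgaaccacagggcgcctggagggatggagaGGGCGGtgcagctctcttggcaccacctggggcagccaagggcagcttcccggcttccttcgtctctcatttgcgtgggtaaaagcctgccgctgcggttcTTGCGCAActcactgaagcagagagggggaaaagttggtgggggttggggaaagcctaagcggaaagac
Ptges (chr2:30903298-30903547, minus strand): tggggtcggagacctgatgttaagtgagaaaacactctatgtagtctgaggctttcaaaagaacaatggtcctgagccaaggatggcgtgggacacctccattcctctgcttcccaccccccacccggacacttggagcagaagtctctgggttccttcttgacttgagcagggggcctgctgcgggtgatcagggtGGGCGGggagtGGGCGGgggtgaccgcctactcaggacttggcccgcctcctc
Ptges2 (chr2:32395640-32395889, plus strand): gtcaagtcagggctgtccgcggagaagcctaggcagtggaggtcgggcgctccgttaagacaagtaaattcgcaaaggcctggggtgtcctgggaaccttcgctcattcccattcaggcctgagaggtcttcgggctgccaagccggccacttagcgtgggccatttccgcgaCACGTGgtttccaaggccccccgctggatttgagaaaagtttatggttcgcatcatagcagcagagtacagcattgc
Ptges3 (chr10:128058732-128058981, plus strand): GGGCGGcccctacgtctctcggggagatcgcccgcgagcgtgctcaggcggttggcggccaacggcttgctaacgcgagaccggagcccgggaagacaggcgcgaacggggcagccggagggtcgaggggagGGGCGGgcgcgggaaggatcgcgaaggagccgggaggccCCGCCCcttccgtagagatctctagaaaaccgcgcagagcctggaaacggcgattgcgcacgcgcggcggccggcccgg
Of the 10 genes, 9 matched the RefSeq promoter table, and Ptgis did not. The listed starts of Ptges, Ptgs1, Ptgds and Hpgds, and the second listed start of Pla2g4a, lie inside the gene's span rather than at its outer end.

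Motifs were searched on both strands: a CRE core (TGACG), an E-box (CACGTG), a C/EBP palindrome (TTGCGCAA), a GC box (GGGCGG) and an AP-1 site (TGANTCA). Ptgs2 held the C/EBP letters 69 to 62 bases before the listed start, which 0.164% of the 32851 windows of that length hold, and 1 GC box. Ptges held 2 GC boxes at 53 to 48 and 42 to 37 bases before its start, Ptges3 held 3, and 32.7% of all windows hold at least 1. Ptges2 held 1 E-box, found in 6.02% of windows. GC boxes thus stood in windows of both a variable and a steady gene. The window of Ptgs1 and both windows of Pla2g4a held none of the 5 motifs. Other starts of these genes were not searched. The matches describe these letters and were not tested as binding sites.

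Within libraries, Ptges was below Ptges2 per kilobase in 6 of 6 cultures, with a log2 difference of -2.04 ± 1.16 (SD, n = 6; exact sign-flip permutation p = 0.0312, adjusted 0.0703). The gap was -4.07 in replicate 1 and -0.56 in replicate 5. It depended on the exon lengths used, at -0.80 without length scaling and -0.33 with GENCODE transcript lengths. The adjusted p of the sign-flip test was then 0.156 and 0.668. With GENCODE lengths the mean was 2.81 ± 2.23 CPM per kilobase for Ptges and 2.71 ± 0.175 for Ptges2 (SD, n = 6). The GENCODE length of Ptges2, 4978 bases, exceeds its deposited length of 1952 bases, so the order of these 2 genes is uncertain. Ptges was also below Ptges3 in 6 of 6 cultures, by a log2 difference of -4.90 ± 1.16 (SD, n = 6; exact sign-flip permutation p = 0.0312, adjusted 0.0703). The steady pair, Ptges2 minus Ptges3, gave -2.86 ± 0.0700 (SD, n = 6; exact sign-flip permutation p = 0.0312, adjusted 0.0703), with the smallest SD of the 9 pairs, and -4.14 with GENCODE lengths.

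**Figure D2:**
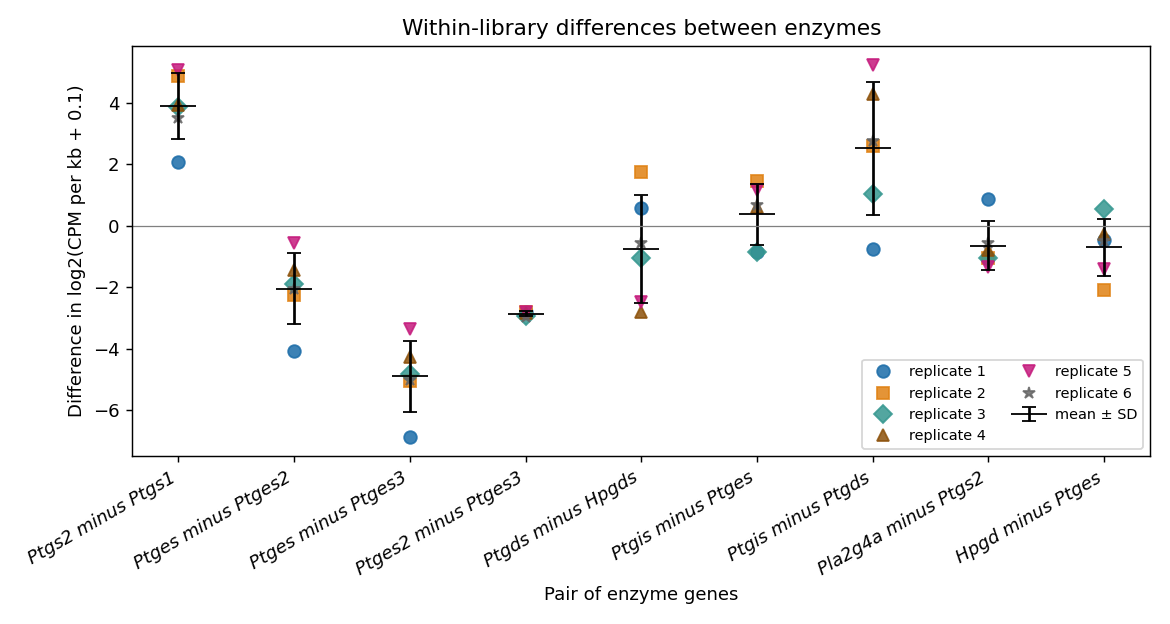
Difference in log2(CPM per kb + 0.1) between 2 enzyme genes of the same library, 1 symbol per replicate, with the mean and SD in black, for the 9 pairs compared. Ptgs2 lies above Ptgs1 in all 6 libraries, while Ptgds minus Hpgds falls on both sides of 0.

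The 2 prostaglandin D2 synthases were both scarce. Ptgds, the lipocalin-type synthase, abundant in brain meninges (chromosome 2, 25466709 to 25470110), had 6, 11, 8, 2, 4 and 5 counts in replicates 1 to 6. That is 0.277 ± 0.141 CPM (SD, n = 6), and the gene did not pass the filter. Without a filter, where 50.2% of 26854 genes were called, the chi-square test did not call its spread beyond counting noise (adjusted p = 0.254).

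Hpgds, the haematopoietic synthase used by mast cells and some macrophages (chromosome 6, 65117293 to 65144981), stood at 0.566, 0.328, 3.37, 4.83, 5.73 and 1.53 CPM in replicates 1 to 6. Its mean was 2.73 ± 2.27 CPM (SD, n = 6). Replicates 1 and 2 were low, at 13 and 7.2 counts, and replicates 3, 4 and 5 had 73 to 120 counts.

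Per kilobase, Ptgds was below Hpgds in 4 of 6 libraries and above it in replicates 1 and 2. The log2 difference of -0.75 ± 1.75 (SD, n = 6) was within the spread (exact sign-flip permutation p = 0.344, adjusted 0.387). It moved to -1.26 without replicate 2, -0.35 without replicate 4 and -0.41 without replicate 5. It was -0.37 with a pseudocount of 1 and -2.42 without length scaling.

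Ptgis, prostacyclin synthase (chromosome 2, 167203194 to 167252150), had the widest range of all 10 genes. It stood at 0.261, 7.70, 1.85, 7.87, 23.2 and 4.64 CPM in replicates 1 to 6, from 6 counts to 486. The mean of 7.59 ± 8.24 CPM (SD, n = 6) became 4.46 CPM without replicate 5. Replicates 2 and 4 were alike, and replicate 3 was low, unlike its place among Ptgs1, Hpgds and Hpgd. The gene overlaps Gm52569 on the opposite strand, to which the limit given for Ptges applies.

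Of the terminal synthases, Ptgis for prostacyclin and Ptges for prostaglandin E2 changed places between libraries. Ptgis minus Ptges was 0.37 ± 1.00 in log2 CPM per kilobase (SD, n = 6; exact sign-flip permutation p = 0.406, adjusted 0.406), higher in 4 of 6 libraries. Without length scaling it was -0.92 and with GENCODE lengths 0.17, and leaving out single libraries gave 0.15 (without replicate 2) to 0.62 (without replicate 3). Against Ptgds, Ptgis was higher in 5 of 6 libraries, by 2.53 ± 2.17 (SD, n = 6; exact sign-flip permutation p = 0.0625, adjusted 0.113), and by 1.48 with a pseudocount of 1.

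Hpgd, the dehydrogenase that begins prostaglandin breakdown (chromosome 8, 56294552 to 56321046), stood at 0.348, 0.410, 4.52, 3.69, 3.20 and 1.67 CPM in replicates 1 to 6. Replicates 1 and 2 were low, at 8 and 9 counts, and replicate 3 was the highest. The mean was 2.31 ± 1.76 CPM (SD, n = 6). Per kilobase Hpgd was below Ptges in 5 of 6 libraries and above it in replicate 3, by -0.69 ± 0.925 on the log2 scale (SD, n = 6; exact sign-flip permutation p = 0.156, adjusted 0.201). Without replicate 2 the difference was -0.42 and with a pseudocount of 1 it was -0.37, whereas it was -1.06 with GENCODE transcript lengths and -2.20 without length scaling.

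Upstream, Pla2g4a was below Ptgs2 per kilobase in 5 of 6 libraries and above it in replicate 1. The log2 difference was -0.65 ± 0.796 (SD, n = 6; exact sign-flip permutation p = 0.125, adjusted 0.188), and -1.19 without length scaling.

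Of Ptgis, Hpgds and Hpgd, which did not pass the filter and were lowest in replicates 1 or 2, all 3 were called beyond counting noise when genes with a mean of at least 10 counts were tested instead. Under that filter, added after the data were seen, 7 of 9 enzyme genes were called, against 75.6% of 16309 genes. Ptges2 and Ptges3 were the 2 not called.

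By mean level per kilobase the order was Ptges3, Ptgs2, Pla2g4a, Ptges2, Ptgis, Ptges, Hpgd, Hpgds, Ptgs1 and Ptgds. The ends were 50.6 ± 2.40 CPM per kilobase for Ptges3 and 0.305 ± 0.155 for Ptgds (SD, n = 6). Among the genes passing the filter, the level of Ptges3 exceeded that of 91.6% and the level of Ptgs2, at 14.5 ± 16.1 CPM per kilobase (SD, n = 6), that of 69.5%.

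Few neighbours in that order were separated. Ptges3 and Ptgs2 alone had ranges that did not overlap, with the highest Ptgs2 library at 45.8 and the lowest Ptges3 library at 47.7 CPM per kilobase. The order of Hpgd over Hpgds held in 6 of 6 libraries, although their ranges overlapped. The order of Ptgs2 over Pla2g4a, Ptges2 over Ptgis and Ptges over Hpgd held in 5 libraries each, and that of Ptgis over Ptges, Hpgds over Ptgs1 and Ptgs1 over Ptgds in 4. Pla2g4a exceeded Ptges2 in 2 libraries only, since its mean was carried by replicates 4 and 5. With GENCODE transcript lengths Ptgs1 stood at 2.55 and Ptges2 at 2.71 CPM per kilobase, against 0.589 and 6.90 with the deposited lengths, so their places are uncertain.

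**Figure D3:**
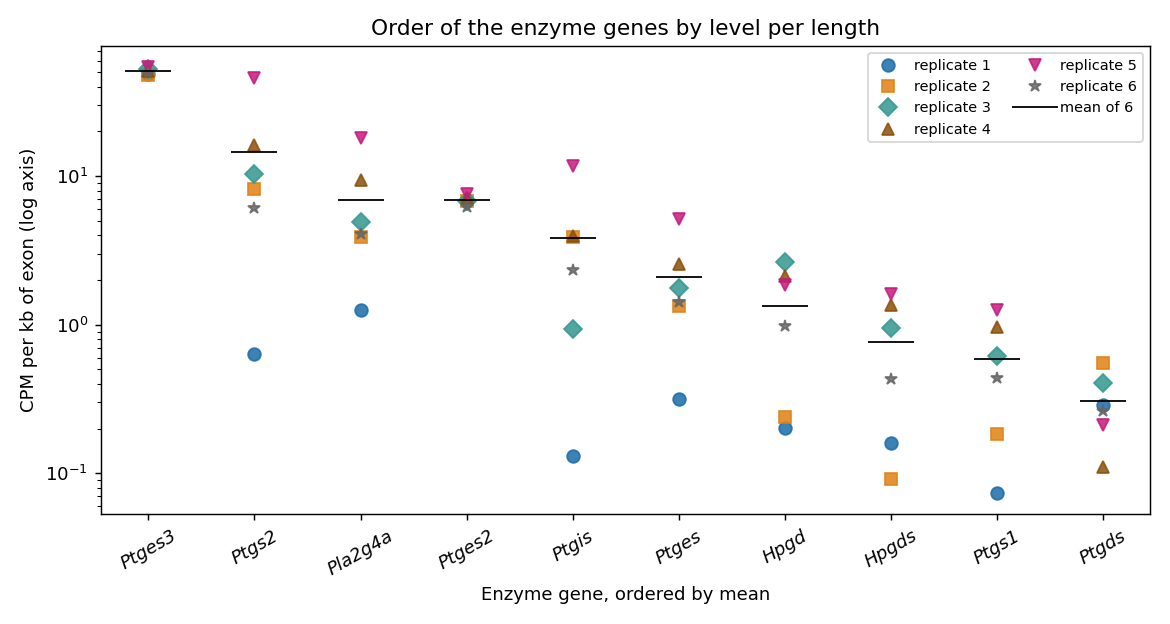
CPM per kilobase of exon (log axis) of the 10 enzyme genes, ordered by their mean over the 6 cultures (bar), 1 symbol per replicate. Neighbouring genes overlap, except Ptges3 and Ptgs2, and Ptges3 lies between 47.7 and 54.1 CPM per kilobase in every library.

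The variable enzymes did not share 1 pattern over the libraries. Profiles were compared as the root-mean-square difference between log2 CPM values, each gene centred on its own mean over the 6 libraries. Pla2g4a and Ptges were 0.17 apart, the closest of the variable genes. Hpgds and Hpgd were 0.38 apart. Ptgs1 was about equally far from Pla2g4a (0.42), Ptges (0.42) and Hpgds (0.43). Ptgis was 1.40 from Hpgds and 1.49 from Hpgd, and 0.74 from Pla2g4a. Ptgs2 was 0.72 from Ptges, with larger swings at both ends. Ptges2 and Ptges3 were 0.06 apart, both being nearly flat.

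Replicates 2 and 3 showed where these patterns parted, a comparison of single libraries chosen after the values were seen, with no replicate check. Hpgd was 11.0 times as high in replicate 3 as in replicate 2 (95% exact counting interval 5.58 to 24.9), and Hpgds 10.6 times (4.88 to 27.2). Ptgs1 was 3.37 times as high (2.44 to 4.71). Ptgis went the other way, with a ratio of 0.240 (0.166 to 0.340).

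Pla2g4a, Ptgs2 and Ptges had ratios of 1.27, 1.27 and 1.32 between these libraries, and Ptges2 of 1.01 (0.858 to 1.20). The intervals cover counting error only. Between the same 2 libraries the summed marker lists had ratios of 4.09 for macrophages, 1.92 for neurons, 1.5 for mural cells and 1.45 for endothelium. Ratios below 1 were those of the glial lineage (0.959), perineurial and meningeal (0.828) and fibroblast (0.731) lists. The endothelial list thus differed in direction from Ptgis.

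**Figure D4:**
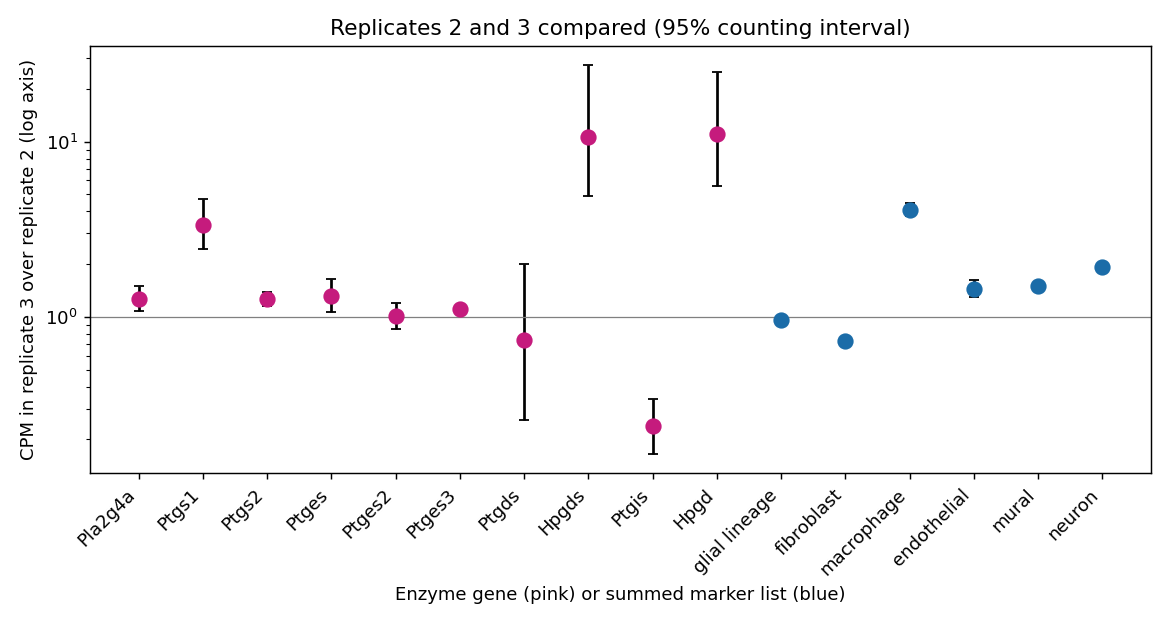
Ratio of CPM in replicate 3 to replicate 2 (log axis) for the 10 enzyme genes (pink) and 6 summed marker lists (blue), with 95% exact counting intervals. Hpgds and Hpgd stand near 10 with Ptgs1 and the macrophage list between them and 1, and Ptgis lies below 1 on the side of the fibroblast list.

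Marker lists of other cell types moved with these genes. The macrophage list, of which 8 of 10 genes had more than 3 counts in every library and none stayed at or under 3 counts throughout, summed to 17.2, 32.0, 131.0, 152.4, 180.3 and 46.5 CPM in replicates 1 to 6. Its order of libraries, 1, 2, 6, 3, 4 and 5, was that of Ptgs1, Pla2g4a and Ptges. By the same root-mean-square measure it was the nearest of the 8 lists to Ptgs1 (0.30), Hpgds (0.40) and Hpgd (0.44), and also to Ptgs2, at a larger distance (0.92).

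The fibroblast list, with 7 of 8 genes above 3 counts in every library, summed to 3339, 6064, 4432, 7453, 13980 and 4801 CPM. Its order of libraries, 1, 3, 6, 2, 4 and 5, was that of Ptgis. The lists nearest to Ptgis were endothelial (0.91) and fibroblast (0.98), neither of them close. The measure counts the size of the swings as well as the order of libraries. A list with wide swings can therefore be nearest to a gene with wide swings, such as Ptgis or Ptgs2, without sharing its order. The endothelial list, with all 7 genes above 3 counts in every library, summed to 15.5 CPM in replicate 1 and 145.7 CPM in replicate 5, and was the nearest to Pla2g4a (0.33) and Ptges (0.36).

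Contractile mural markers, all 6 above 3 counts in every library, had their lowest sum in replicate 1 (273.7 CPM) and their highest in replicate 5 (1541 CPM). Mast cell markers, relevant to Hpgds, were near the detection limit: 5 of 7 stayed at or under 3 counts throughout, Fcer1a had 0, and the list summed to between 0 and 0.860 CPM. Perineurial and meningeal markers, 6 of 7 above 3 counts in every library, summed to between 475.7 and 657.4 CPM. The glial sum was lowest in replicate 5 and highest in replicate 2, and the neuronal sum lowest in replicate 5 and highest in replicate 3. The part of these cell types in the enzyme levels was not tested.

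**Figure D5:**
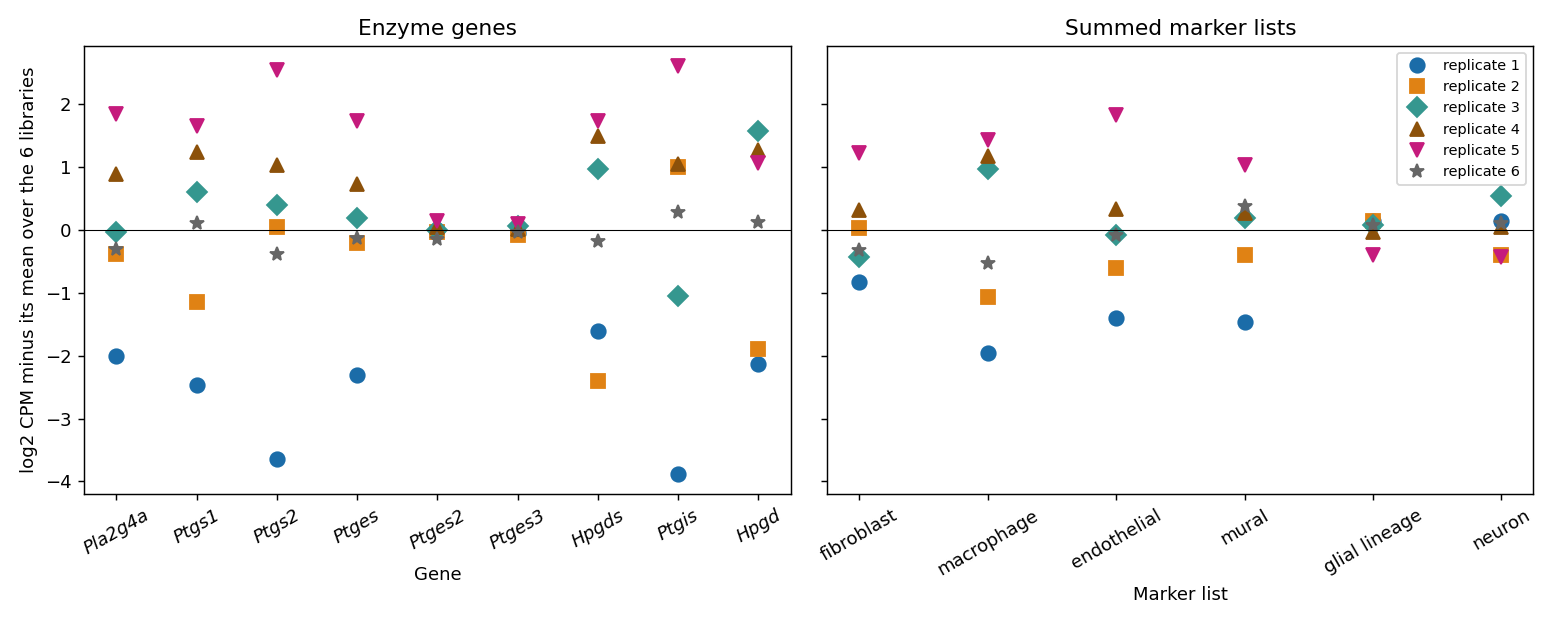
Log2 CPM minus its mean over the 6 libraries for 9 enzyme genes (left; Ptgds is left out because of its low counts) and for 6 summed marker lists (right), 1 symbol per replicate. Replicate 1 is low and replicate 5 high for most enzyme genes and for the fibroblast, macrophage, endothelial and mural lists, whereas Ptges2, Ptges3 and the glial list stay near 0.

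For each variable enzyme gene, the genes with the nearest profile were sought among protein-coding genes with a mean of at least 5 CPM. For Pla2g4a they were Colec12 (0.04), a scavenger receptor collectin, Cthrc1 (0.05), a secreted matrix protein, and Ripk3 (0.09), a kinase of necroptosis. Colec12 ran from 7.28 to 106.1 CPM over the libraries. For Ptges they were Cgnl1 (0.08), Fgf7 (0.08), a growth factor of mesenchymal cells, and Sned1 (0.12).

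For Ptgs2 the nearest were Kng2 (0.26), Itih2 (0.32) and Lox (0.35), the collagen cross-linking lysyl oxidase, which ran from 26.3 to 980.2 CPM. For Ptgs1 they were Igfbp4 (0.19), Srpx2 (0.19) and Serpinb9b (0.21). The nearest gene of Ptgs2 was therefore farther away than the nearest gene of Pla2g4a or Ptges. These distances describe 6 libraries of mixed cells, among 10814 candidate genes.

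The same search was extended, after the data were seen, to the 3 variable genes that failed the filter. For Hpgds the nearest were Cd84 (0.16), Lyz1 (0.18) and C3ar1 (0.23), a leukocyte surface receptor, a lysozyme and the receptor for complement fragment C3a. For Hpgd they were Slc15a3 (0.26), Lyz1 (0.29) and Galnt6 (0.32). For Ptgis they were Zic1 (0.37), a transcription factor, Hic1 (0.42), a transcriptional repressor, and Sfrp4 (0.44), a secreted Wnt modulator. Lyz1 ran from 1.51 to 12.6 CPM, and Zic1 from 0.958 to 47.4 CPM.

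The rest of the pathway was read from 41 further genes in 5 groups. Of these, 27 passed the filter and 24 of the 27 (88.9%) were called beyond counting noise, against the background of 76.3%. The groups hold at most 7 genes that passed, too few to set their own counts of calls apart from that share. Their median SD of log2 CPM was 0.23, against 0.16 over all genes passing the filter and 1.23 for the 6 enzyme genes that passed. Of the 27, 5 were lowest in replicate 1 and highest in replicate 5, against 12.9% of all genes passing the filter. The opposite ends were held by 7 of the 27, against 7.56% of all genes passing the filter.

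Among other routes to arachidonic acid, 7 of 14 genes passed the filter and 5 were called. Dagla, a diacylglycerol lipase, was the highest per kilobase, at 292.1 ± 43.5 CPM (SD, n = 6). Mgll, which hydrolyses 2-arachidonoylglycerol to arachidonic acid, was measured at 44.5 ± 16.3 CPM, and was highest in replicate 1 (68.6 CPM) and lowest in replicate 5 (28.8 CPM), the reverse of Pla2g4a. Pla2g12a was steady at 13.0 ± 0.933 CPM (SD, n = 6) and was not called (chi-square adjusted p = 0.178). Pla2g4e, Pla2g4f, Pla2g5 and Pla2g10 stayed at or under 3 counts in each library.

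All 6 genes that return arachidonic acid to phospholipids passed the filter and were called, beside 76.3% of all genes. Acsl4, which activates the acid as its coenzyme A ester, stood at 151.5 ± 13.4 CPM, Acsl3 at 105.7 ± 20.7 CPM and Lpcat3 at 64.2 ± 8.15 CPM (SD, n = 6 each). Their median SD of log2 CPM was 0.18, so they varied little beside Pla2g4a.

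Of 9 other prostanoid synthases and ketoreductases, 6 passed the filter and 5 were called. Prxl2b, a prostaglandin F synthase, stood at 41.3 ± 7.42 CPM, Akr1b3 at 54.4 ± 3.77 CPM and Akr1b8 at 22.8 ± 9.72 CPM (SD, n = 6 each). Akr1b8 was lowest in replicate 1 and highest in replicate 5.

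All 5 genes of prostaglandin transport and further breakdown passed and were called, beside 76.3% of all genes. The reductases Zadh2, Ptgr2 and Ptgr1 stood at 66.3 ± 4.67, 56.4 ± 5.23 and 22.8 ± 3.29 CPM (SD, n = 6 each). Slco2a1, the prostaglandin uptake carrier, is named after its values were seen: its lowest library was replicate 1 (2.53 CPM) and its highest replicate 5 (58.2 CPM), with an SD of log2 CPM of 1.42. Hpgd, which acts on prostaglandins after their uptake, was highest in another library, replicate 3.

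In the lipoxygenase branch, which uses the same acid, 3 of 7 genes passed and were called. Lta4h stood at 72.3 ± 4.74 CPM and Alox5ap, the partner of 5-lipoxygenase, at 1.99 ± 1.63 CPM (SD, n = 6 each). Ltc4s reached at most 5 counts, and Alox12b had at most 3 counts in every library.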

How the data were processed

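Stranded poly-A libraries were made from RNA of 6 cultures, per the labels' protocols. The authors deposited raw estimated counts per gene: in each library 13.4% to 14.7% of values were not whole. The submitters' processing notes list cutadapt 2.5, STAR 2.7.2b, featureCounts 1.6.4 and GRCm38.p6. The handling of multi-matching reads and the strand setting are not given in the sources used here.

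CPM used library totals. CPM per kilobase used the deposited exon length. For the chi-square test across all genes, counts were rounded, genes kept with filterByExpr and totals scaled by TMM (edgeR 4.0.16, R 4.3.3). Benjamini-Hochberg adjustment followed. The test was also run on simulated counts that held counting error only, apart from 200 genes changed by design. That run does not show how the test behaves on the counts of these cultures. Differences between enzymes used log2(CPM per kilobase + 0.1) and an exact permutation test that flips signs over all 64 patterns (two-sided). The SD of log2 used a pseudocount of 0.5.

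Alternatives were library totals, DESeq2 1.42.0 size factors, other filters, pseudocounts and lengths, rounding, and leaving out replicates. Named genes were the 10 enzymes, the 3 highest genes per kilobase of each pathway group, genes at or under 3 counts throughout, and the 3 nearest profiles of each enzyme gene that passed the filter with an SD of at least 0.5. Enzymes and lists were chosen with earlier results of these data known. PCR reads without molecular identifiers are not independent molecules, so counting tests cover counting error only.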

Additional observations from a re-analysis of the deposited data

Results flagged for a closer look

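Over 19 measures, the 10 enzyme levels and the 9 differences between enzymes, the distance of the outermost library from the next was taken as a ratio to the whole range. That ratio passed Dixon's 95% critical value for 3 measures. The 0.95 measures given by chance alone assume normally distributed values. Enzyme levels entered as CPM and not as log2 CPM, so the 3 flagged measures cannot be set against 0.95. Ptgs2 had a ratio of 0.658, because replicate 5 stood at 204.4 CPM and the next library, replicate 4, at 71.8 CPM. Ptgis had a ratio of 0.668, with replicate 5 at 23.2 CPM and replicate 4 at 7.87 CPM. The log2 difference of Pla2g4a from Ptgs2 had a ratio of 0.649, because it was positive, at 0.88, in replicate 1. The 3 measures share libraries and, in part, genes, so they are not independent.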

How the results depend on the processing

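Of the alternative values for the numbers of calls and the 9 differences between enzymes, 111 were counted as unchanged and 1 reversed. The reversed value was Ptgis minus Ptges, at -0.92 without length scaling. Numbers of calls were counted as unchanged when they stayed within 1.5 times. Differences run with 6 libraries kept their sign, and their adjusted p stayed above 0.05. With 1 replicate left out the differences had no adjusted p, so only their sign was compared. No difference between enzymes passed the corrected threshold under any alternative run with 6 libraries, and with 5 the smallest possible p is 0.0625. With 6 libraries a pair can pass only if most of the 9 pairs reach the smallest p, so this outcome says little about single pairs. Across the settings 4 to 7 enzyme genes were called, and Pla2g4a, Ptgs1, Ptgs2 and Ptges were called under all of them, also with replicates 1 and 5 both left out. Without a low-count filter, 7 of 10 were called, against 50.2% of 26854 genes. Of 150 alternative levels and spreads, 142 were counted as unchanged and 8 spreads as moved. Of these 8, 6 came with a pseudocount of 5, which shrinks low genes by construction. The others were Ptgs2 (1.13) and Ptges (0.77) without replicate 1. Some levels counted as unchanged still shifted when replicate 5 was left out. The mean of Ptgs2 fell from 64.8 to 36.9 CPM and that of Ptgis from 7.59 to 4.46 CPM. Depth limits Ptgds, at 2 to 11 counts, and the low libraries of Hpgds, Hpgd and Ptgis. No replicate block could be fitted between groups, because the 6 cultures form a single group; differences between enzymes were paired within libraries.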
